A study of Mus musculus with 24 samples.

Results

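Prox1, Dsp, Icam5, Plk5, Tdo2 and Rbfox3 are genes by which mature granule neurons of the dentate gyrus are recognised, and their RNA is described here in 24 libraries. They were taken by name, 6 of the 23306 entries of the table, and were chosen with earlier results of these data known. Prox1 differs from the other 5 in that it is used at all stages of the granule lineage, from progenitor to old neuron. All 6 were measured in every library and passed the filter on low values in every fit. Granule neurons are the principal cells of this hippocampal region, where new neurons continue to be added in adult life. A newborn neuron passes through a progenitor and an immature stage and, over several weeks, gains the dendrites, spines and gene products of its older neighbours.

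In this study RNA bound to tagged ribosomes was set against RNA of the tissue. All mice were female C57BL6 of the genotype Tg(Nestin-cre/ERT2)::RPL22HA/WT, and all received tamoxifen at 160 mg/kg a day for 5 days when 9 to 11 weeks old. One of the alleles of Rpl22 carries the tag and the other is wild type. Tamoxifen activates a Cre recombinase made under the Nestin promoter, which is active in neural stem cells. The recombined cells and their descendants then carry a haemagglutinin tag on the ribosomal protein Rpl22, so that their ribosomes can be precipitated with the RNA on them. The precipitate (IP) is labelled as immature neurons and the input as the dentate gyrus. Running mice were housed singly with a turning wheel and sedentary mice had a blocked one. Treatment lasted 11, 18 or 27 days, and each combination of fraction, activity and day had 2 libraries, marked by the letters a and b (day 11), c and d (day 18), or e and f (day 27). Neither the number of mice in a library nor whether both libraries of a group stem from different mice is stated in the labels. The p-values therefore reflect only how far these samples vary, and that variation may be technical. Of 16 immature granule neuron genes, 15 were higher in the IP than in the input (median log2 difference 2.47, beside 0.12 for all 19507 genes tested, of which 41.4% were called higher and 28.5% lower), with Dcx at 119 ± 41.6 against 14.7 ± 1.35 TPM (mean ± SD, n = 12 libraries each). Of genes of other cell types, 10 of 10 microglia genes, 13 of 14 interneuron genes, 11 of 14 pyramidal and mossy neuron genes, 9 of 12 oligodendrocyte genes, 6 of 10 meningeal genes and 5 of 10 endothelial genes were lower in the IP. Of 10 astrocyte genes 4 were higher and 4 lower, and of 9 choroid plexus genes 3 were higher and 4 lower. Neural stem and progenitor genes were higher in the IP in 12 of 12 cases (median log2 difference 1.51). The summed TPM of the oligodendrocyte list was higher in the IP, at 907 to 1396 TPM against 522 to 818 TPM in the input, and that of the astrocyte list ranged from 2556 to 4993 TPM in the IP and from 2093 to 3099 TPM in the input.

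Each of the 6 has its own role. Prox1 encodes a homeodomain transcription factor that specifies granule cell fate and keeps it. Dsp encodes desmoplakin, which ties intermediate filaments to desmosomes in epithelia and is a marker of granule cells within the hippocampus. Icam5 encodes telencephalin, an adhesion molecule of the dendrites of forebrain neurons. Plk5 encodes a member of the polo-like kinase family in the brain that has no part in driving cell division. Tdo2 encodes tryptophan dioxygenase, which opens the kynurenine pathway of tryptophan breakdown. Rbfox3 encodes NeuN, a splicing regulator and the usual nuclear marker of mature neurons.

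In the GRCm38 assembly (GENCODE M21) Prox1 lies on chromosome 1 from 190118035 to 190170714 on the minus strand and Dsp on chromosome 13 from 38151294 to 38198577 on the plus strand. Icam5 lies on chromosome 9 from 21032073 to 21039036 and Plk5 on chromosome 10 from 80356459 to 80365489, both on the plus strand. Tdo2 lies on chromosome 3 from 81957090 to 81976202 and Rbfox3 on chromosome 11 from 118489762 to 118911597, both on the minus strand. All 6 are protein-coding. Antisense genes overlap Prox1 (Prox1os, Gm28172), Dsp (Gm10129), Icam5 (Gm47079, Gm26592, Mir1900) and Rbfox3 (Gm11750), and Gm11749 and Gm25040 lie within Rbfox3 on its own strand. No source used here gives the strand setting of the quantification, so reads of such pairs could not be told apart with certainty. Plk5 and Tdo2 have no overlapping gene.

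The promoter windows of Icam5, Plk5 and Dsp are shown because these 3 genes rose together in the IP with time, as given further on, also when the day 11 libraries of letter a were left out. Each window runs from 250 bases before to 50 bases after the start, on the plus strand of GRCm38.p6 as given by RefSeq, at chr9:21031788-21032087 for Icam5, chr10:80356209-80356508 for Plk5 and chr13:38151044-38151343 for Dsp. Capitals mark the GC box CCGCCC or its reverse complement.
Icam5: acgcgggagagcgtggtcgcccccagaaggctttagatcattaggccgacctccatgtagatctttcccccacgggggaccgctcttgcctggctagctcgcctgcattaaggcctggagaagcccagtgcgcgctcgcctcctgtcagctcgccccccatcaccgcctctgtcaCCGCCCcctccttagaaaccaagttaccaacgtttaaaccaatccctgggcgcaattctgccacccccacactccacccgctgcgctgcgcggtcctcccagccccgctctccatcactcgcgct
Plk5: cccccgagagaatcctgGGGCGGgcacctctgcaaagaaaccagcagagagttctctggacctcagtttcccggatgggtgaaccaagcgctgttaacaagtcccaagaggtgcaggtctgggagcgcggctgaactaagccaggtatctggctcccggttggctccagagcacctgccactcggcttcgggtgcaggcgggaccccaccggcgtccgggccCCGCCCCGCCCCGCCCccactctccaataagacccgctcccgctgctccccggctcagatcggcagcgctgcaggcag
Dsp: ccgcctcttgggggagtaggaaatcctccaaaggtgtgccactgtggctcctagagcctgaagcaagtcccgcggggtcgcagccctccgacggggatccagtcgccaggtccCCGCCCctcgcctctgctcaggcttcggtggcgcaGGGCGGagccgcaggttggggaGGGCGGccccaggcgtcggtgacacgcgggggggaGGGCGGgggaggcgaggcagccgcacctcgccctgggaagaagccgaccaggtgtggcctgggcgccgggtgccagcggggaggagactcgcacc
The GC box occurred at 1 place in the Icam5 window, at 4 places in that of Plk5, of which 3 overlap, and at 4 places in that of Dsp. It was also present in both windows of Prox1, at 2 places and at 1, and absent from those of Tdo2 and Rbfox3. Of the 32851 RefSeq windows of this length, 35.7% hold it. The 6 genes have 7 windows, since Prox1 has 2, and both strands were searched for 5 further motifs. The E-box CAGATG was found in 1 window of Prox1 (17.2% of all windows hold it) and the TATA box TATAAA in that window and in the one of Tdo2 (13.6% of all windows). CAGCTG (16.3% of all windows), TGACGTCA (1.79%) and the MEF2 site (0.557%) were in no window of the 6 genes, and the Rbfox3 window held none of the motifs. A match in these letters is a description and not a binding site.

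The libraries differed in ways that touch the results. TPM keeps no read depth, so the depth is unknown. The running IP library of letter a at day 11 gave 17.4% of its TPM to the RNA Rpph1, against 4.58 to 9.16% in the other 11 IP libraries. The median olfactory receptor gene, which the dentate gyrus should not use, stood at 3.50 to 7.56 TPM in the input of day 18, at 0 to 1.76 TPM in that of day 11 and at 1.02 to 2.52 TPM in that of day 27. In the IP it stood at 0 to 0.87 TPM on all days. The sedentary input library of letter a held 1.76 TPM, the highest of day 11. Comparisons that involve day 11 were therefore repeated without its 4 libraries of letter a, an alternative chosen after the data were seen, and the values are given where a call changed.

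On the TPM scale, which is per transcript length, Prox1 was the most abundant of the 6 in both fractions, with a mean of 470.0 ± 89.3 TPM in the IP, against 234 ± 34.7 TPM in the input (SD, n = 12 libraries each). In the IP it was followed by Rbfox3 (186 ± 35.6 TPM), then by Icam5 (131 ± 45.5 TPM) and Dsp (124 ± 39.8 TPM), whose ranges overlap almost wholly. Plk5 (21.3 ± 7.16 TPM) and Tdo2 (14.2 ± 4.95 TPM) were roughly an order of magnitude lower. In the input Prox1 and Rbfox3 (214 ± 27.2 TPM) overlapped, Icam5 (173 ± 19.7 TPM) came before Dsp (125 ± 30.3 TPM), and the order of the lowest pair was turned, with Tdo2 (20.7 ± 2.94 TPM) above Plk5 (15.1 ± 5.32 TPM). Rbfox3 and Icam5 overlapped in both fractions.

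**Figure D1:**
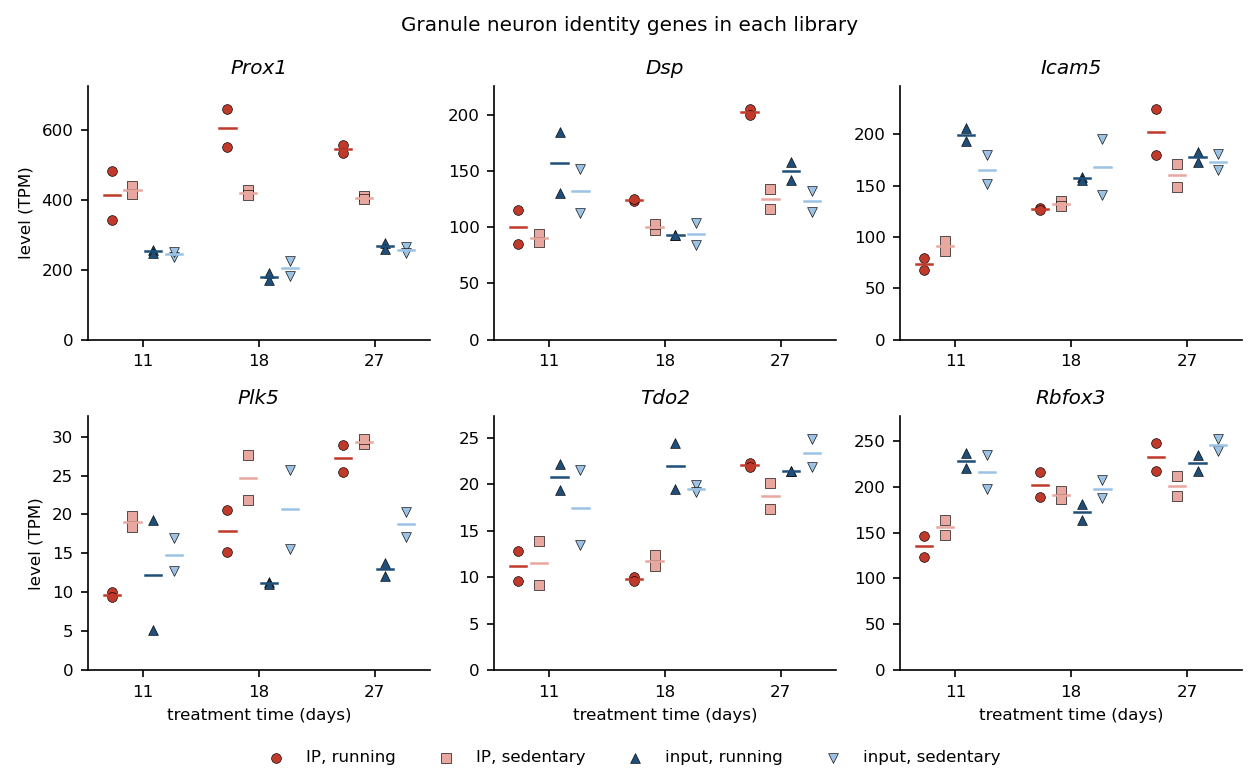
Level (TPM, linear axis from 0) of each of the 6 genes in each library by treatment time, with 1 point per library and a bar at the mean of the 2 libraries of a group. Prox1 is higher in the IP than in the input in every library, and in the IP Icam5, Plk5, Dsp, Tdo2 and Rbfox3 are higher at day 27 than at day 11 in all 4 libraries.

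The first comparison asks which of these genes the tagged cells carried on their ribosomes relative to the tissue. Prox1 and Plk5 were higher in the IP than in the input. Icam5, Tdo2 and Rbfox3 were lower, and Dsp was not called. Thus 5 of 6 were called, 2 higher and 3 lower, where of all 19507 genes tested 41.4% were called higher and 28.5% lower (69.9% in all). The median log2 difference of the 6 was -0.12, beside 0.12 for all genes. Of 22 other granule neuron genes 6 were higher and 10 lower, with a median of -0.08. With median-of-ratios scaling 4 of the 22 were higher and 15 lower, with a median of -0.36.

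Prox1 ranged from 344 over a median of 434 to 659.8 TPM in the IP, against 169 over 249 to 275 TPM for the input libraries. The lowest IP library lay above the highest input library, which was so for 10.1% of all genes in this direction. The log2(TPM + 1) difference was 0.99 ± 0.07 (SE), a 1.99-fold higher level (adjusted p = 2.07e-10, limma). Plk5 ranged from 9.40 over 21.2 to 29.6 TPM in the IP, against 5.16 over 14.7 to 25.7 TPM in the input, with a log2 difference of 0.47 ± 0.14 (limma adjusted p = 0.00683). Its groups overlapped, and with median-of-ratios scaling its difference of 0.21 was no longer called (adjusted p = 0.197).

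Among the genes that were lower, Tdo2 ranged from 9.11 over 12.6 to 22.2 TPM in the IP, against 13.4 over 21.4 to 24.8 TPM in the input. Its log2 difference was -0.57 ± 0.09 (limma adjusted p = 1.09e-05). Icam5 ranged from 68.0 over 129 to 224 TPM in the IP, against 140.4 over 176 to 206 TPM in the input, so the IP spanned the whole range of the input. Its log2 difference was -0.47 ± 0.07 (limma adjusted p = 5.23e-06). Rbfox3 differed least of the called genes, at -0.22 ± 0.06 (adjusted p = 0.00473), with 123 over 189 to 248 TPM in the IP against 163 over 219 to 252 TPM in the input. Dsp had nearly equal means, 124 ± 39.8 TPM in the IP, against 125 ± 30.3 TPM in the input, with a log2 difference of -0.03 and a 95% interval from -0.19 to 0.13. With median-of-ratios scaling, which moves the median of all genes to -0.12, Dsp was called lower at -0.31 (adjusted p = 0.00888), and of the genes called 40.3% were higher in the IP in place of 59.3%. Without the libraries of letter a, Dsp was likewise called lower, at -0.16 (adjusted p = 0.0466). In bulk RNA, fewer cells of a type and less RNA per cell cannot be told apart.

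The difference between IP and input was also estimated on each day. At day 11, 4 of the 6 were lower in the IP (of all genes, 12.1% were called lower) and only Prox1 was higher (29.2% called higher, 41.2% in all). Icam5 stood at -1.13 ± 0.12 on the log2 scale, Tdo2 at -0.70 ± 0.15, Rbfox3 at -0.61 ± 0.11 and Dsp at -0.59 ± 0.13, with limma adjusted p from 3.29e-07 to 0.00144. Of all genes, 1.44% had a lower value than Icam5. The IP and input libraries of Icam5 and Rbfox3 did not overlap on that day (10.7% of all genes did so downwards). Plk5 differed by 0.14 ± 0.25 (adjusted p = 0.685), and without the libraries of letter a by 0.63 (adjusted p = 0.0302). With median-of-ratios scaling the share of calls that were higher was 47.8% at day 11 in place of 70.8%, 37.3% at day 18 in place of 51.5% and 43.9% at day 27 in place of 70.9%.

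At day 18 Prox1 was higher by 1.39 ± 0.12, while Tdo2 (-0.88 ± 0.15) and Icam5 (-0.31 ± 0.12) were lower, so 3 of 6 were called (33% of all genes higher and 31% lower, 64% in all). The Icam5 call rests on single libraries, as leaving out any of 7 of the 8 libraries of that day ended it, and without the libraries of letter a Dsp (0.26) and Plk5 (0.45) were called higher as well. At day 27 Prox1 (0.84 ± 0.12) and Plk5 (0.82 ± 0.25) were higher and none of the 6 was lower, where 34.6% of all genes were called higher and 14.3% lower. Icam5 differed by 0.03 at day 27, with a 95% interval from -0.22 to 0.28, and Rbfox3 and Tdo2 both by -0.13. With median-of-ratios scaling, Plk5 lost its call at day 27 (0.51, adjusted p = 0.0973) and Tdo2 (-0.44, adjusted p = 0.0126) and Rbfox3 (-0.45, adjusted p = 0.00252) were called lower.

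**Figure D2:**
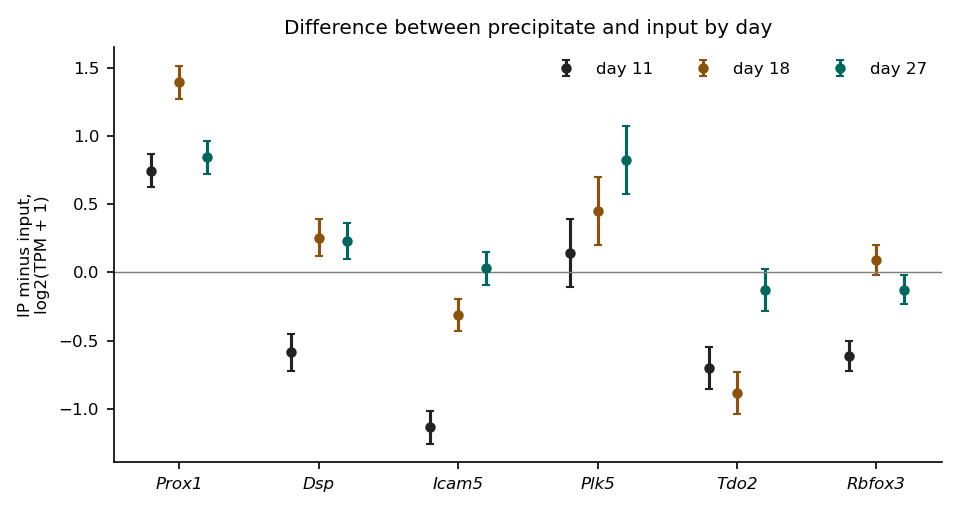
Difference between IP and input for each gene at day 11, 18 and 27, as the limma estimate on log2(TPM + 1) with its SE as the error bar (4 libraries per fraction and day). Icam5 stands at -1.13 at day 11, -0.31 at day 18 and 0.03 at day 27, while Prox1 lies between 0.75 and 1.39. The value of Prox1 is highest at day 18, when its mean input level was lowest (192 TPM) and its mean IP level highest (513 TPM).

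The IP libraries of the 3 days were compared with each other next, which asks how these genes differ with the time since treatment began. Between day 27 and day 11, Icam5, Plk5, Tdo2, Dsp and Rbfox3 rose, and Prox1 was not called. Of all 17282 genes tested in the IP, 11.4% rose and 3.88% fell, and in 13.2% the 4 libraries of day 27 lay above the 4 of day 11, as they did for all 5 genes that rose. The median log2 difference of the 6 was 0.78, beside 0.15 for all genes. The shares of all genes are given as a description, since the 6 were chosen with earlier results of these data known. With median-of-ratios scaling the median of all genes was 0.0044 and 39.3% of the genes called were higher in place of 74.6%, and the same count of 5 members rose. The number of genes called, 2642, depended on single libraries and ran from 1014 to 4185 when 1 was left out, and it was 636 without the libraries of letter a, while the count of members stayed at 5 when 1 library was left out.

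Icam5 stood at 79.9 and 68.0 TPM in running and 96.0 and 86.7 TPM in sedentary animals at day 11. At day 18 it stood at 128 and 127 TPM in running and 135 and 129.7 TPM in sedentary mice, and at day 27 at 224 and 179.6 TPM in running and 171 and 149 TPM in sedentary mice. The 3 days did not overlap (upwards, 10.2% of all genes did not from day 11 to 18, and 3.77% from day 18 to 27). The log2 difference between day 27 and day 11 was 1.12 ± 0.11, a 2.17-fold higher level (limma adjusted p = 7.27e-05), and 99.3% of genes had a lower value. Of the step, 0.65 ± 0.11 fell between day 11 and day 18 (adjusted p = 0.00717) and 0.46 ± 0.11 between day 18 and day 27 (adjusted p = 0.0895).

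Plk5 stood at 9.99 and 9.40 TPM in running and 19.8 and 18.4 TPM in sedentary animals at day 11. At day 18 it stood at 15.2 and 20.6 TPM in running and 27.7 and 21.8 TPM in sedentary mice, and at day 27 at 25.5 and 28.9 TPM in running and 29.0 and 29.6 TPM in sedentary mice. All 4 libraries of day 27 lay above those of day 11, and the running libraries were the lowest on each day. The log2 difference between day 27 and day 11 was 1.00 ± 0.14 (limma adjusted p = 0.000447).

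Tdo2 changed late. It stood at 9.61 and 12.8 TPM in running and 9.11 and 13.9 TPM in sedentary animals at day 11, and at 10.0 and 9.57 TPM in running and 12.3 and 11.2 TPM in sedentary animals at day 18. At day 27 it stood at 22.2 and 21.8 TPM in running and 20.2 and 17.4 TPM in sedentary mice. These lay above all earlier libraries, and 3.77% of all genes lay above day 18 in this way. The log2 difference was 0.81 ± 0.16 between day 27 and day 11 (limma adjusted p = 0.0047) and 0.86 ± 0.16 between day 27 and day 18 (adjusted p = 0.0513), and -0.05 ± 0.16 between day 18 and day 11.

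Dsp stood at 115 and 85.0 TPM in running and 94.2 and 86.7 TPM in sedentary animals at day 11. At day 18 it stood at 123 and 125 TPM in running and 97.1 and 103 TPM in sedentary mice, and at day 27 at 205 and 199 TPM in running and 134 and 117 TPM in sedentary mice. The lowest library of day 27 lay just above the highest of day 11, and the running libraries of day 27 stood apart from all others. The log2 difference between day 27 and day 11 was 0.74 ± 0.11 (limma adjusted p = 0.000759).

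Rbfox3 stood at 123 and 146 TPM in running and 147 and 164 TPM in sedentary animals at day 11, at 216 and 189 TPM in running and 195 and 186 TPM in sedentary animals at day 18, and at 248 and 218 TPM in running and 212 and 189.5 TPM in sedentary animals at day 27. Day 11 lay below the later days, which overlapped (10.2% of all genes rose without overlap between day 11 and day 18). The log2 difference between day 27 and day 11 was 0.57 ± 0.11 (limma adjusted p = 0.00388), of which 0.44 ± 0.11 lay between day 11 and day 18 (adjusted p = 0.0333). Leaving out any of 9 of the 12 libraries ended the call between day 11 and day 18 (adjusted p up to 0.154).

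Prox1 stood at 344 and 481 TPM in running and 439.9 and 416 TPM in sedentary animals at day 11, at 659.8 and 552 TPM in running and 427 and 414 TPM in sedentary animals at day 18, and at 558 and 535 TPM in running and 411 and 401 TPM in sedentary animals at day 27. The days overlapped. The log2 difference between day 27 and day 11 was 0.17 with a 95% interval from -0.10 to 0.45 (limma adjusted p = 0.378).

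Between day 18 and day 11, 3 of 6 were called higher, Icam5, Plk5 and Rbfox3, where 4.56% of all genes were, 1.1% being called lower and 5.66% in all. The Plk5 call also depended on single libraries, its log2 difference running from 0.47 to 0.68 when 1 was left out. With median-of-ratios scaling 47.9% of the genes called were higher in place of 80.6%, and Icam5 alone of the 6 was called. Between day 27 and day 18 none of the 6 was called, where 0.0694% of all genes were called higher and 0.0521% lower, that is 12 and 9 genes (57.1% upward, and 39.1% with median-of-ratios scaling). Without the libraries of letter a, 3 of the 5 rises between day 27 and day 11 kept their call (Dsp, Icam5 and Plk5), and Tdo2 (0.57, adjusted p = 0.0697) and Rbfox3 (0.47, adjusted p = 0.0636) lost it. In that smaller fit no gene at all was called between day 18 and day 11, in place of 978, with Icam5 at 0.75 (adjusted p = 0.0958), Plk5 at 0.62 (adjusted p = 0.15) and Rbfox3 at 0.34 (adjusted p = 0.258). Leaving out 1 library at a time gave 131 to 2679 called genes.

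Whether the change over time differed between the fractions was tested directly. The difference between day 27 and day 11 was larger in the IP than in the input for Icam5 by 1.16 ± 0.17 (limma adjusted p = 0.00292) and for Dsp by 0.82 ± 0.19 (adjusted p = 0.0342), so 2 of 6 were called, where 1.46% of all genes were called in this direction, 0.323% in the other and 1.78% in all. Of the genes called 81.9% were in this direction, and 71.8% with median-of-ratios scaling, under which Dsp was not called (adjusted p = 0.111). Without the libraries of letter a the majority turned, with 225 genes in this direction and 469 in the other, in place of 285 and 63, and Icam5 (1.30, adjusted p = 0.00263) and Dsp (1.19, adjusted p = 0.00208) were still called. Leaving out 1 library at a time gave 104 to 1035 called genes in place of 348. For Plk5 the difference was 0.68 with a 95% interval from -0.06 to 1.41 (adjusted p = 0.365), for Tdo2 it was 0.57 (adjusted p = 0.198), for Rbfox3 0.49 (adjusted p = 0.112) and for Prox1 0.10 (adjusted p = 0.821). Leaving out any of 11 of the 24 libraries ended the call of Dsp (adjusted p up to 0.108). Without the running input library of letter b at day 11, which held 5.16 TPM of Plk5, the Plk5 difference was called at 1.11 (adjusted p = 0.00674).

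In the input, between day 27 and day 11 none of the 6, and none of the 20462 genes tested, was called by limma (2917 genes had an unadjusted p under 0.05). Without the sedentary input library of letter a, 1380 genes were called, and without all libraries of that letter 1185, among them Plk5 at 0.85 (adjusted p = 0.0291). Between day 18 and day 11 Dsp and Prox1 fell (2 of 6, where 11.4% of all genes fell, 37.8% rose and 49.2% were called in all; 76.8% of the genes called were higher, and 63.1% with median-of-ratios scaling), and between day 27 and day 18 Dsp, Prox1 and Rbfox3 rose (3 of 6, where 10.4% of all genes rose and 37.1% were called in all).

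Dsp stood in the input at 130.1 and 184 TPM in running and 113 and 152 TPM in sedentary animals at day 11, at 92.8 and 92.8 TPM in running and 84.6 and 104 TPM in sedentary animals at day 18, and at 141 and 158 TPM in running and 113 and 132 TPM in sedentary animals at day 27. All 4 libraries of day 18 lay below those of the other days (7.92% of all genes did against day 11 and 12% against day 27). The log2 difference was -0.61 ± 0.15 between day 18 and day 11 (limma adjusted p = 0.00633) and 0.53 ± 0.15 between day 27 and day 18 (adjusted p = 0.0211). Prox1 stood in the input at 257 and 249 TPM in running and 238 and 251 TPM in sedentary animals at day 11, at 169 and 191 TPM in running and 183 and 226 TPM in sedentary animals at day 18, and at 275 and 259.6 TPM in running and 265 and 249 TPM in sedentary animals at day 27. It was also lowest at day 18 in every library, by -0.38 ± 0.12 against day 11 (limma adjusted p = 0.02).

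Rbfox3 stood in the input at 220.3 and 237 TPM in running and 198 and 235 TPM in sedentary animals at day 11, at 163 and 181 TPM in running and 188 and 207 TPM in sedentary animals at day 18, and at 235 and 218 TPM in running and 252 and 239 TPM in sedentary animals at day 27. Day 27 lay above day 18 in all libraries (12% of all genes did), with a log2 difference of 0.35 ± 0.12 (limma adjusted p = 0.035). This call was lost with a pseudocount of 0.1 (adjusted p = 0.0501), a mean of at least 5 TPM (0.0515) and eBayes without trend and robust (0.0508). Icam5 stood in the input at 206 and 193 TPM in running and 152 and 179 TPM in sedentary animals at day 11, at 159 and 155 TPM in running and 195 and 140.4 TPM in sedentary animals at day 18, and at 173 and 183 TPM in running and 165 and 181 TPM in sedentary animals at day 27. No pair of days was separated. Tdo2 ranged from 13.4 to 24.8 TPM and Plk5 from 5.16 to 25.7 TPM over the 12 input libraries, neither being called between any days.

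The median olfactory receptor gene was highest in the same day 18 input libraries, at 5.69 ± 1.68 TPM against 0.535 ± 0.836 TPM at day 11 (mean ± SD, n = 4 each), and 1037 of 1069 tested olfactory receptor genes were called higher there. Its part in the lower Dsp, Prox1 and Rbfox3 of that day was not tested. The 3 calls between day 27 and day 18 depended on single day 18 or day 27 libraries. Without the libraries of letter a, which leaves 1 library in each day 11 group, Plk5 was higher at day 18 than at day 11 by 0.80.

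The study's own question was the effect of voluntary running on adult-born neurons. In the IP none of the 6 genes was called between running and sedentary mice over the 3 days, and of 17282 genes 0.00579% (1 gene) was called by limma, while 2453 had an unadjusted p under 0.05. The lowest p among the 6 were those of Plk5, Dsp and Prox1, whose values follow as differences that did not pass the test.

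Plk5 ranged from 9.40 over 17.9 to 28.9 TPM in running mice, against 18.4 over 24.7 to 29.6 TPM in sedentary mice, in the IP (n = 6 libraries each). On each of the 3 days both running libraries lay below both sedentary libraries. The log2 difference was -0.49 with a 95% interval from -0.73 to -0.25 (limma adjusted p = 0.145), and it was -0.91 at day 11, -0.45 at day 18 and -0.11 at day 27. Dsp ranged from 85.0 over 124 to 205 TPM in running mice, against 86.7 over 100.1 to 134 TPM in sedentary mice, with a log2 difference of 0.38 and a 95% interval from 0.18 to 0.57 (adjusted p = 0.161). It was 0.13 at day 11, 0.31 at day 18 and 0.69 at day 27. Prox1 ranged from 344 over 543 to 659.8 TPM in running mice, against 401 over 415 to 439.9 TPM in sedentary mice, so the sedentary libraries lay close together and the running ones spread widely. The lowest running value came from the day 11 library of letter a, which gave 17.4% of its TPM to Rpph1. The part of Rpph1 in that value was not tested. The next lowest running value was 481 TPM, above all sedentary libraries. Mean levels of Prox1 in running and sedentary mice were 413 and 428 TPM at day 11, 606 and 421 TPM at day 18, and 546 and 406 TPM at day 27. Its log2 difference over the 3 days was 0.29 with a 95% interval from 0.06 to 0.52 (limma adjusted p = 0.259).

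For Icam5 the running difference was -0.01 with a 95% interval from -0.20 to 0.18, for Tdo2 it was -0.01 with an interval from -0.29 to 0.27 and for Rbfox3 0.03 with an interval from -0.17 to 0.22. At day 11 both running libraries lay below both sedentary ones for Icam5, Plk5 and Rbfox3 (22.5% of all genes did) and above them for none of the 6 (6.77% did). At day 18 they lay above for Dsp and Prox1 (21.5% did) and below for Icam5, Plk5 and Tdo2 (23.8% did). At day 27 all of Prox1, Dsp, Icam5, Tdo2 and Rbfox3 had both running libraries above both sedentary ones (17.3% of all genes did), and Plk5 had them below (28.6% did). A comparison of 2 with 2 libraries has few possible orders, and none of the 6 was called on that day, when 0.00579% of all genes were called higher and 0.0231% lower (0.0289% in all). The F test of whether the running difference changed between the days gave adjusted p of 0.921 or more for all 6 genes, and the running difference in the IP minus that in the input gave 0.803 or more.

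In the input none of the 6 was called and no gene passed (0% of 20462 genes), while Plk5 again had the lowest p, at 12.1 ± 4.57 TPM in running mice and 18.1 ± 4.47 TPM in sedentary mice (SD, n = 6 each). Its log2 difference was -0.59 with a 95% interval from -1.14 to -0.05 (unadjusted p = 0.0349, adjusted p = 0.953, limma). The other 5 genes differed by -0.08 to 0.17. In the IP the summed TPM of the astrocyte list ranged from 2556 to 3910 in running mice and from 3481 to 4993 in sedentary mice, and none of its 10 genes was called. That of the oligodendrocyte list ranged from 907 to 1259 in running mice and from 1176 to 1396 in sedentary mice, and that of the stem and progenitor list from 879.7 to 1556 in running mice and from 1133 to 1617 in sedentary mice. That of the immature neuron list ranged from 2809 to 6495 in running mice and from 2597 to 4646 in sedentary mice, and that of the other polo-like kinases from 183 to 238 in running mice and from 141 to 202 in sedentary mice. No gene of these lists was called, and their part in the values of Plk5, Dsp and Prox1 was not tested.

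**Figure D3:**
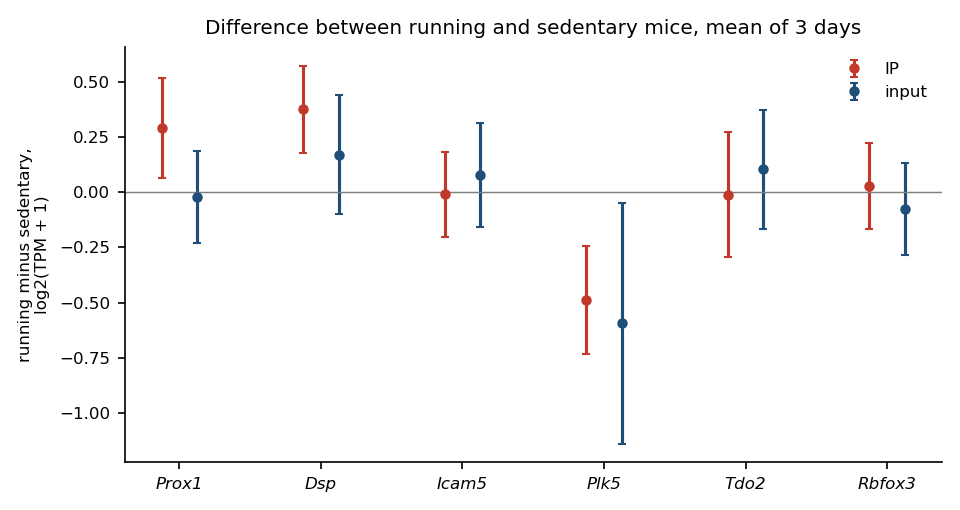
Difference between running and sedentary mice, as the mean of the 3 days, for each gene in the IP and in the input (limma estimate on log2(TPM + 1), error bars are 95% intervals, 6 libraries per activity and fraction). Plk5 is below 0 in both fractions (-0.49 in the IP and -0.59 in the input), and no gene was called after adjustment.

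Genes of like function give the context, from lists chosen with earlier results of these data known. Of 22 other granule neuron genes, 16 rose and 1 fell in the IP between day 27 and day 11, with a median of 0.63 beside 0.15 for all genes. Ncdn, a neuronal protein of the cell body and dendrites, rose most, to 984 ± 285 TPM at day 27 against 358 ± 47.7 TPM at day 11 (SD, n = 4 each, log2 difference 1.42, limma adjusted p = 7.48e-05). C1ql2, a synaptic protein of mossy fibres, stood at 107 ± 28.3 against 44.9 ± 7.22 TPM, and Calb1, the calcium buffer calbindin of mature granule cells, at 139 ± 26.6 against 93.0 ± 11.3 TPM (limma adjusted p = 0.00503, and 0.0761 with median-of-ratios scaling). Mfap4, named after its value was seen, was the gene that fell (log2 difference -1.10). With median-of-ratios scaling 14 of the 22 rose, and without the libraries of letter a 13 did.

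Among genes of younger cells, those that were called fell. Of 16 immature granule neuron genes none rose and 4 fell (3.88% of all genes fell), and 9 fell with median-of-ratios scaling, 7 with rescaling and 3 without the libraries of letter a. Among the 4 were Calb2 (calretinin, 157 ± 60.2 TPM at day 27 against 370.1 ± 126 TPM at day 11) and Stmn1, a tubulin-binding protein (763 ± 205 against 1340.0 ± 220.1 TPM). Without the libraries of letter a, Calb2 (adjusted p = 0.0713) and Stmn1 (adjusted p = 0.0836) were not called. Dcx, which binds microtubules in migrating young neurons, stood at 91.1 ± 15.6 against 137 ± 44.2 TPM and was not called (limma adjusted p = 0.114). Of 12 neural stem and progenitor genes 5 fell, and 11 did with median-of-ratios scaling, 8 with rescaling and 4 without the libraries of letter a. Among the 5 was Top2a, a topoisomerase of dividing cells (31.9 ± 3.33 against 79.8 ± 12.9 TPM). Of 10 microglia genes 3 fell, and none did without the libraries of letter a. The summed TPM of that list ranged from 98.8 to 155 at day 27 and from 168 to 221 at day 11, and of 12 oligodendrocyte genes none was called. The part of other cell types in the rise of the 5 genes was not tested.

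**Figure D4:**
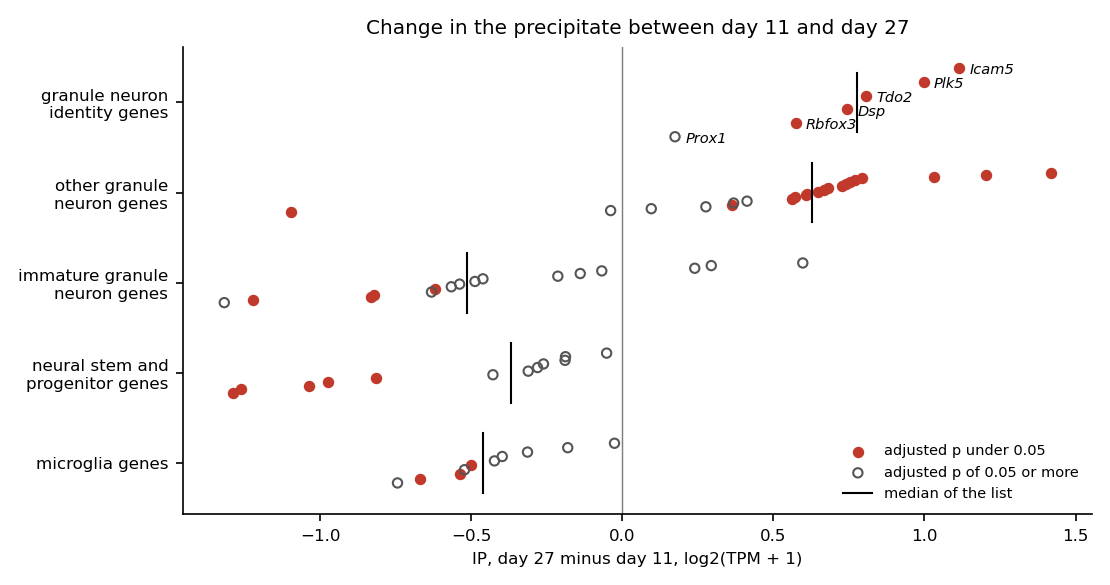
Difference between day 27 and day 11 in the IP on log2(TPM + 1), with 1 point per gene in 5 lists, filled where the limma adjusted p was under 0.05, and a line at the median of each list. The granule neuron identity genes (median 0.78) and other granule neuron genes (0.63) lie mostly to the right of 0, while immature neuron (-0.51), stem and progenitor (-0.37) and microglia genes (-0.46) lie mostly to the left.

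Relatives of the 6 were also measured, and no difference between a member and a relative was tested. Rbfox1, another splicing regulator of the same family, rose between day 27 and day 11 in the IP (268 ± 48.7 against 191 ± 15.1 TPM, limma adjusted p = 0.0139), but not under median-of-ratios scaling (adjusted p = 0.102) or without the libraries of letter a (adjusted p = 0.101), while Rbfox2 stood at 95.3 ± 3.43 against 96.8 ± 16.1 TPM. Of the polo-like kinases, Plk4, which duplicates centrioles, fell (6.98 ± 1.45 against 10.6 ± 1.24 TPM, adjusted p = 0.0493, and 0.277 without the libraries of letter a), and Plk1, Plk2 and Plk3 were not called. The ezrin family genes Ezr, Msn and Rdx, whose products link membrane proteins such as telencephalin to actin, all fell, Ezr to 123 ± 23.2 against 230.0 ± 24.4 TPM. Icam1, Icam2 and Icam4 stood at 0.865 to 2.97 TPM in the mean of either day and were not called.

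Of the desmosome genes, 8 of 17 passed the filter in the IP and Pkp4 was the one that rose (120.5 ± 5.98 against 95.6 ± 11.8 TPM, limma adjusted p = 0.0336), but not under median-of-ratios scaling (adjusted p = 0.189) or without the libraries of letter a (adjusted p = 0.185). Of the tryptophan and kynurenine genes, 11 of 17 passed the filter and 2 rose. The share of all genes that rose in the IP, 11.4%, stands beside this list and the desmosome list. The 2 were Slc3a2, the partner chain of an amino acid transporter (295 ± 17.7 against 196 ± 48.8 TPM), and Got2, a mitochondrial aminotransferase (119 ± 29.7 against 86.1 ± 9.94 TPM). Without the libraries of letter a, Slc3a2 (0.37, adjusted p = 0.127) and Got2 (0.45, adjusted p = 0.095) were not called, nor was Got2 with median-of-ratios scaling (adjusted p = 0.152). Neurod1, a proneural factor upstream of Prox1 in the lineage, fell (195 ± 41.7 against 299 ± 48.9 TPM, adjusted p = 0.0156, and 0.127 without the libraries of letter a), and Prox2, a homologue of Prox1, was not called (12.2 ± 4.26 against 8.39 ± 2.65 TPM).

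Across the 12 IP libraries the 6 genes varied together to unequal extents, given as a description over libraries that share days and fraction. Icam5 followed Rbfox3 (Pearson r = 0.911, Spearman rho = 0.895), Plk5 (r = 0.830) and Dsp (r = 0.817), while Prox1 followed Plk5 (r = 0.067) and Tdo2 (r = 0.086) least. Of the protein-coding genes with a mean of at least 5 TPM, those most like Icam5 in the IP were Cx3cl1 (r = 0.987), Kcnh3 and Kcnab2, and those most like Dsp were Wipf3 (r = 0.985), Wasf1 and Map1a. Most like Plk5 were Mical2 (r = 0.961), Nab2 and Ttc39c, most like Tdo2 were Dnajb12 (r = 0.931), Hpcal4 and Chst1, most like Rbfox3 were Jph4 (r = 0.982), Atn1 and Tmcc2, and most like Prox1 were Rad23b (r = 0.975), Tbr1 and Zbtb18. Over all 24 libraries, where the difference between IP and input enters, the nearest were Ptpro to Prox1 (r = 0.988), Palm to Dsp (r = 0.863), Cbx6 to Icam5 (r = 0.930), B3gat1 to Plk5 (r = 0.884), Gpc4 to Tdo2 (r = 0.919) and Ski to Rbfox3 (r = 0.953).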

How the data were processed

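RNA of the IP and of the input was sequenced after SMARTer Stranded Total RNA-Seq v2 library preparation, per the labels' protocols. The authors deposited 1 table of TPM values (transcript abundance scaled by length and within each library), with RSEM and mm10 named in the submitters' processing notes. For the RSEM version, aligner, annotation and strand setting, the entry is: not given in the sources used here. TPM keeps no depth.

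From these values, log2(TPM + 1) was tested with limma 3.58.1 in R 4.3.3 (eBayes with trend and robust, two-sided, Benjamini-Hochberg over all genes with a mean of at least 1 TPM, threshold 0.05). The fits held all 24 libraries, the 12 IP or the 12 input libraries. An F test compared the running effect between days. On simulated data for day 27 against day 11 in the IP, 82.1% of genes changed by 1 on the log2 scale were recovered and 19.4% of those changed by 0.5. A fold on this scale understates the change of low genes.

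The members and the 18 gene lists were chosen with earlier results of these data known. Named are the 6 members, fixed relatives, up to 4 genes of each list with the lowest p, and the 3 protein-coding genes most correlated with each member (mean of at least 5 TPM). Alternatives were other pseudocounts, filters, scalings and eBayes settings, a replicate block, single days, leaving out day 18, and leaving out each library. Positions came from GENCODE M21, which holds 21658 of the 23306 entries, and promoters from RefSeq GRCm38.p6.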

Additional observations from a re-analysis of the deposited data

Results flagged for a closer look

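Tdo2 stood apart in 1 library each in 2 of 60 groups of 4 or 6 libraries checked (by day or by activity within a fraction), where chance gives about 1 in 20. In the input of day 18 it was 24.4 TPM in the running library of letter d, against 19.1 to 19.9 TPM in the other 3 libraries. In the input of day 27 it was 24.8 TPM in the sedentary library of letter e, against 21.4 to 21.8 TPM in the other 3.

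The change between day 27 and day 11 differed between IP and input for Icam5, by 1.16 on the log2 scale (limma adjusted p = 0.00292), and for Dsp, by 0.82 (adjusted p = 0.0342).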

How the results depend on the processing

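No value called in either setting changed sign, while uncalled ones did, such as Plk5 for IP against input at day 11 (0.14, and -0.29 without the running input library of letter b at day 11) and for day 18 against day 11 in the input (0.27, and -0.16 without that library). Of the values for single members under alternatives other than leaving out 1 library, 1153 kept their side of the threshold, 20 passed it newly and 21 lost it. Between IP and input at day 18, 3 members were called, where 64% of all genes were. Without the libraries of letter a, Dsp stood there at 0.26 and Plk5 at 0.45. The day effect in the IP minus that in the input gave 1 member with median-of-ratios scaling, with rescaling after leaving out the most abundant entries and with eBayes without trend and robust, and 0 with the replicate block (Icam5 adjusted p = 0.052, Dsp 0.143, and 5 genes called in place of 348), in place of 2. Day 18 against day 11 in the IP gave 1 with median-of-ratios scaling and 0 with eBayes without trend and robust or without letter a, in place of 3. Day 27 against day 18 in the IP gave 1 (Tdo2) with pseudocount 5, a mean of at least 5 TPM, either scaling or without letter a, in place of 0. Day 27 against day 11 gave 3 in the IP without letter a, in place of 5, and 1 in the input (Plk5, 0.85, adjusted p = 0.0291), in place of 0. Day 18 against day 11 in the input gave 2 members, where 49.2% of all genes were called. Without letter a, Plk5 stood there at 0.80 and Rbfox3 at -0.36. All genes called at day 27 against day 11 in the IP numbered 2642, 1716 without trend and robust, and 636 without letter a.

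With the shared letter as a replicate block, 2 members were called between running and sedentary IP libraries, in place of 0, namely Dsp (0.37, adjusted p = 0.0295) and Plk5 (-0.49, adjusted p = 0.0412), and at day 27 alone 1, Dsp (0.69, adjusted p = 0.0442), while all genes called numbered 440 in place of 1. The letters were not shown to pair libraries. Deviations of same-letter running and sedentary libraries correlated at 0.197, 0.0484 and 0.0568 in the IP at day 11, 18 and 27. In the input they did so at 0.268, 0.0795 and 0.0816. Those of IP and input of the same name correlated at -0.278 to -0.00829. Day against day could not be fitted with the block, since each letter belongs to 1 day. The cause of these differences was not tested.

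Leaving out each library in turn left 1 library in a group. Only ranges of the log2 difference are therefore given, for the member results whose call changed. No running comparison was among these, nor was day 27 against day 11 in the IP. For IP against input, Plk5 ran from -0.29 to 0.57 at day 11. At day 18 it ran from 0.28 to 0.62, and Icam5 from -0.43 to -0.19. It gave 1 to 3 for the day effect between fractions, and in the IP 1 to 4 for day 18 against day 11, 0 to 2 for day 27 against day 18 and 5 to 5 for day 27 against day 11. In the input, day 18 against day 11 gave -0.45 to -0.30 for Prox1, -0.33 to -0.21 for Rbfox3 and -0.16 to 0.70 for Plk5. Day 27 against day 18 there gave 0.46 to 0.61 for Dsp, 0.38 to 0.53 for Prox1 and 0.32 to 0.39 for Rbfox3.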
